A study of Mus musculus and Homo sapiens with 30 samples.

Results

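The BCL2 family of death regulators was described by 10 mouse genes, Bcl2, Bcl2l1, Mcl1, Bax, Bak1, Bid, Bik, Bbc3, Pmaip1 and Bcl2l11, and by 5 of their human counterparts, MCL1, BCL2L1, BAX, BBC3 and PMAIP1. The genes were set by name or Ensembl ID and not by a threshold on measured values, although earlier results of these data were known when they were chosen. All 10 were found among the 56980 gene IDs of the mouse count table and all 5 among the 61552 IDs of the human table. RNA was sequenced from 3 mammary cell lines 16 h after a change of medium. The labels also give 36 h of growth for every library. The media were the line's own growth medium (control), or that medium with a 50% share of secretome, the products released by inguinal (subcutaneous) adipocytes that the labels call lean or obese.

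Proteins of the BCL2 family set whether the outer mitochondrial membrane stays closed or is opened to release cytochrome c, the step that commits a cell to apoptosis by the mitochondrial route. Anti-death members (Bcl2, Bcl2l1, which encodes BCL-XL, and Mcl1) hold the pore-forming members Bax and Bak1 in check. BH3-only members (Bid, Bik, Bbc3 or PUMA, Pmaip1 or NOXA, and Bcl2l11 or BIM) report stress by binding the anti-death members or by activating Bax and Bak1 directly.

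E0771 is a mouse mammary cancer line, NMuMG a mouse mammary gland epithelial line and SkBr3 a human breast cancer line, although the labels list each under breast cancer. There were 3 libraries per medium in E0771 and in NMuMG and 4 in SkBr3, with totals of 18479433 to 31094119 counts. NMuMG was grown with insulin and added glucose, so in any comparison of E0771 with NMuMG the line and its growth medium cannot be told apart. The control held no secretome and therefore the full share of growth medium, and the labels do not name the species, number or pooling of the adipocyte donors. No label says that replicates came from separate cultures, so the p-values measure the spread between these libraries, which may be technical. Of 8 mammary epithelial markers, 6 to 7 were above 1 CPM (counts scaled by library total, the usual CPM unit) in every library of a medium in NMuMG, with summed levels of 7180 to 7610 CPM in control, 7910 to 8130 in lean and 6850 to 7220 in obese secretome. In E0771 only Krt8 passed that level and 2 to 4 markers were at 0 in each medium, so its epithelial identity was not shown by these genes. The 7 adipocyte markers summed to at most 1.61 CPM in E0771 and 2.19 CPM in NMuMG, with Lep at 0 in every mouse library. In NMuMG this sum was 0.391 to 0.739 CPM in control, 2.02 to 2.19 in lean and 0.373 to 1.10 in obese secretome. Cidec was the highest of the 7 there in each medium. Under lean secretome 1 of the 7 was above 1 CPM in every library, and Plin1, Lep, Retn and Cfd were at 0. The 5 fibroblast markers, mostly Col1a1, summed to 760 to 845 CPM in E0771 in control, 293 to 321 in lean and 532 to 730 in obese secretome. The 3 endothelial markers, mostly Pecam1, summed to 3.55 to 4.46 CPM in E0771 in control, 2.07 to 2.97 in lean and 3.27 to 5.63 in obese secretome, and to at most 0.241 CPM in NMuMG. Pecam1 was lower under lean secretome in E0771 (log2 fold change -0.88 against obese, adjusted p = 0.000304, and -0.72 against control, adjusted p = 0.002). By edgeR at adjusted p under 0.05, the 2 tested fibroblast markers were lower there too, against each medium. In NMuMG 5 of 7 tested epithelial markers were higher in lean than obese secretome, and 3 of 7 than in control. The 1 adipocyte marker tested in NMuMG was higher, and 1 of 2 fibroblast markers lower, against each medium. Against obese and control, 52.7% and 56.3% of all genes passed in E0771, and 35.0% and 38.2% in NMuMG. The 6 leukocyte markers, mostly Cd68, summed to at most 2.71 CPM in E0771 and 4.05 CPM in NMuMG. The part of these shifts in the results below was not tested. Markers were not checked in SkBr3, since no human gene beyond the 5 IDs was named here.

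In counts per length (CPM per kilobase of annotated exon), Bax was the highest member in control medium in both mouse lines. This rank depends on the annotated lengths. In CPM not divided by length, Mcl1 was highest, at 237.3 against 137.1 for Bax in E0771 and 196.9 against 180.1 in NMuMG. In E0771 the order by mean was Bax 87.0, Bak1 72.1, Mcl1 69.4, Bcl2l1 20.4, Bcl2l11 8.36, Bbc3 5.64, Bid 5.06, Bcl2 1.48, Pmaip1 0.752 and Bik 0.0881. The library ranges of the neighbours Bak1 and Mcl1 overlapped, as did those of Bbc3 and Bid, so neither pair was ordered beyond its spread. In NMuMG the order was Bax 114, Mcl1 57.6, Bak1 44.2, Bcl2l1 36.1, Bid 15.8, Pmaip1 11.9, Bbc3 5.85, Bcl2 2.42, Bcl2l11 2.24 and Bik 0.131, and only Bcl2 and Bcl2l11 overlapped among neighbours. The 4 most abundant genes were the same in both lines: both pore-forming members and the anti-death members Mcl1 and Bcl2l1.

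**Figure D1:**
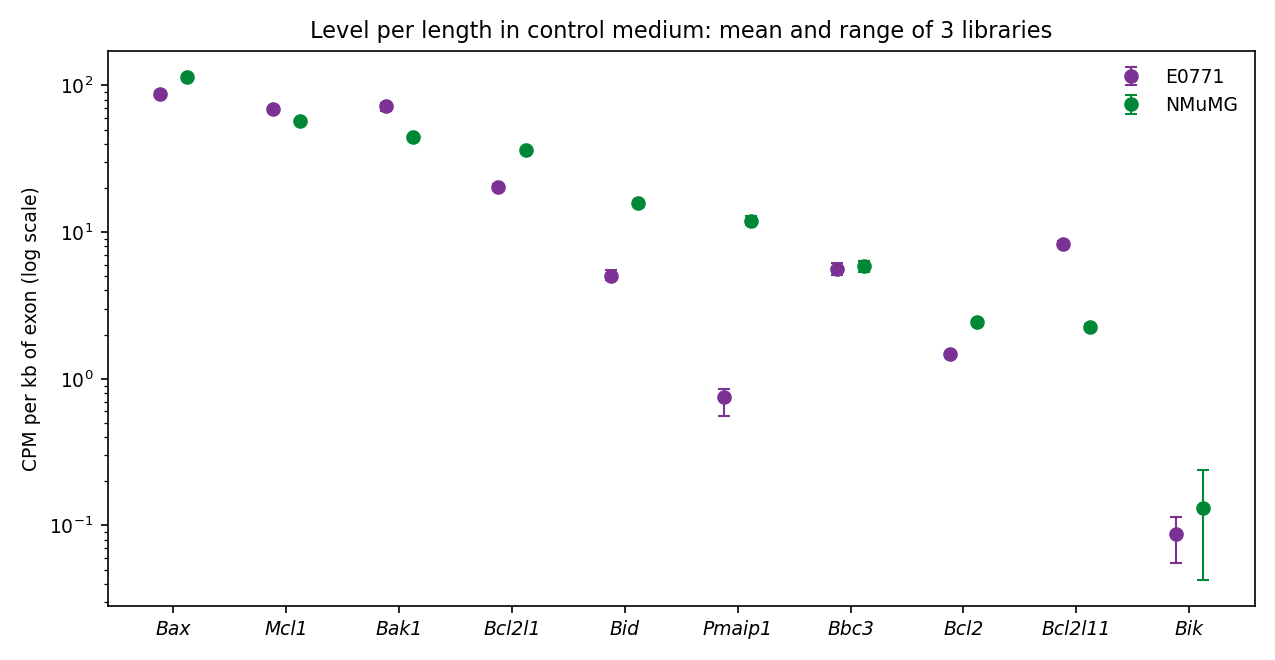
Level of each member per length (CPM per kilobase of exon, log axis) in control medium; points are means and bars the range of 3 libraries, in E0771 and in NMuMG. The lines differ most for Pmaip1, at 0.752 in E0771 and 11.9 in NMuMG, and lie closest for Bbc3, at 5.64 and 5.85.

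The control libraries of the mouse lines differed in most of the family. Of 9 members tested, 8 were called (edgeR's quasi-likelihood test, Benjamini-Hochberg adjusted p under 0.05), beside 80.5% of all genes, so the share called was near the background. Pmaip1 stood at 2.34, 2.29 and 1.53 CPM in the E0771 libraries and 30.7, 31.7 and 34.9 CPM in those of NMuMG (log2 fold change -4.08, SE 0.114, adjusted p = 2.67e-30). Bid was lower in E0771 as well, at 16.6 to 19.6 against 55.6 to 56.8 CPM (log2 fold change -1.77, SE 0.0587, adjusted p = 8.73e-28). Among BH3-only genes the opposite held for Bcl2l11, at 65.0 to 69.7 CPM in E0771 and 17.4 to 19.0 CPM in NMuMG (log2 fold change 1.77, SE 0.0571, adjusted p = 3.15e-28). None of these 3 genes overlapped between the lines. CPM were scaled within each line and the fold changes in 1 fit of both lines, so the CPM ratios differ somewhat from them. The log2 differences of the other called members, E0771 minus NMuMG, were -0.95 for Bcl2l1, -0.84 for Bcl2, 0.58 for Bak1, -0.52 for Bax and 0.15 for Mcl1. Bbc3 was not called (log2 fold change -0.17, SE 0.0925, adjusted p = 0.0906, 95% interval -0.36 to 0.018); it was called when E0771 control replicate 2 (adjusted p = 0.031) or NMuMG control replicate 1 (adjusted p = 0.0372) was left out.

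In E0771, all 3 anti-death members were lower under lean secretome than in either other medium. Among BH3-only genes Pmaip1 was higher and Bbc3 lower. Of 13813 genes tested, 3709 were called lower against obese and 4002 against control. Bcl2l2, an anti-death gene outside the members and named after its value was seen, was not called. Its log2 fold change was 0.06 against obese (adjusted p = 0.481) and -0.07 against control (adjusted p = 0.4). Against obese secretome 6 of 9 tested members were called, 2 higher and 4 lower, beside 52.7% of all genes tested. Library values of lean and obese were fully separated for 6 of 9, beside 60.1% of all genes. Against control 7 of 9 were called, 3 higher and 4 lower, beside 56.3% of all genes. With 9 genes, neither share is read as particular to the family. The members' median lean-over-obese log2 fold change was -0.02 over 9 genes, and it was 0.0035 over all genes. Bik, a BH3-only gene with 1 to 7 reads per E0771 library and 1 to 10 per NMuMG library, did not pass the filter on low counts, and no change in it was detectable at this depth. Libraries are bulk RNA, so fewer cells of a kind and less RNA per cell cannot be told apart.

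Bcl2l1 measured 97.0, 91.1 and 92.7 CPM in the E0771 control libraries, 66.9, 70.0 and 71.9 CPM in lean and 87.5, 92.6 and 93.1 CPM in obese secretome. All 3 lean libraries lay below the other 6, and control and obese overlapped. It fell by 23.5% against obese (log2 fold change -0.39, SE 0.0472, adjusted p = 2.25e-07) and fell by 25.6% against control (log2 fold change -0.43, SE 0.0472, adjusted p = 3.91e-08). The gene's transcripts encode BCL-XL and a shorter, death-promoting form that gene counts do not separate. Bcl2, the founding member of the family, measured 13.6, 13.4 and 13.7 CPM in control, 9.75, 11.6 and 9.93 CPM in lean and 13.5, 13.4 and 14.1 CPM in obese secretome. Again the lean libraries lay apart, below both other groups (against obese, log2 fold change -0.39, SE 0.0869, adjusted p = 0.000496; against control, log2 fold change -0.38, SE 0.0873, adjusted p = 0.00066). Bcl2 shares 558 bases, 6.09% of its exons, with D630008O14Rik on the opposite strand, and the strand setting of the counting is not given in the sources used here. Mcl1, which encodes a short-lived anti-death protein, measured 232, 240.2 and 239.9 CPM in control, 221, 224 and 220.4 CPM in lean and 237, 245 and 243 CPM in obese secretome. The lean libraries were the lowest, and Mcl1 fell by 8.22% against obese (log2 fold change -0.12, SE 0.0362, adjusted p = 0.00573). Against control the log2 fold change of Mcl1 was -0.10 (adjusted p = 0.0251), a call that was lost without each of control replicate 2 (adjusted p = 0.0768), control replicate 3 (adjusted p = 0.106) and lean replicate 1 (adjusted p = 0.064) in turn, and with no filter on low counts (adjusted p = 0.0921), all 18 mouse libraries in 1 fit (adjusted p = 0.074) and only the 2 groups compared (adjusted p = 0.0636).

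Of the pore-forming genes, Bak1 was higher under lean secretome than in control, and Bax was not called. Bax, which moves from the cytosol to mitochondria on activation, ranged from 132 to 144 CPM in control, 138 to 145 CPM in lean and 134 to 152 CPM in obese secretome. The 3 groups overlapped, and the 95% interval of its lean-over-obese log2 fold change was -0.12 to 0.073. Bak1, which sits in the outer mitochondrial membrane, measured 162, 175 and 184 CPM in control, 196, 198 and 189.7 CPM in lean and 179, 185 and 195 CPM in obese secretome. Lean exceeded control in every library (log2 fold change 0.17, SE 0.0449, adjusted p = 0.00287) and overlapped obese (log2 fold change 0.06, SE 0.0447, adjusted p = 0.273). Bak1 shares stretches of 177 and 437 exon bases with 2 annotated genes named Ggnbp1 on the opposite strand, and Bax shares 192 bases with Gm45808 on its own strand, so reads in those stretches cannot be assigned with certainty.

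Among the BH3-only genes, Pmaip1 rose most. It measured 2.34, 2.29 and 1.53 CPM in control, 5.04, 5.25 and 4.60 CPM in lean and 3.35, 2.09 and 2.59 CPM in obese secretome. The lean libraries lay above all others, an increase of 85.5% over obese (log2 fold change 0.89, SE 0.176, adjusted p = 0.000144) and of 139% over control (log2 fold change 1.26, SE 0.183, adjusted p = 2.59e-06). NOXA, its product, binds and inactivates the Mcl1 protein. Bbc3 went the other way, with 11.9, 13.2 and 10.9 CPM in control, 8.47, 7.97 and 8.49 CPM in lean and 11.3, 12.6 and 13.5 CPM in obese secretome. No lean library reached the lowest of the other 6, and Bbc3 fell by 33.4% against obese (log2 fold change -0.59, SE 0.0973, adjusted p = 1.69e-05) and fell by 30.8% against control (log2 fold change -0.53, SE 0.098, adjusted p = 5.78e-05). PUMA, its product, binds every anti-death member. Pmaip1 and Bbc3 are both textbook targets of the transcription factor p53, and here they changed in opposite directions. A part of p53 in either change was not tested.

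Bcl2l11, whose product BIM is set by growth factor withdrawal and kinase signalling, was the exception in which obese secretome stood apart. It measured 69.7, 65.0 and 66.5 CPM in control, 62.0, 66.5 and 67.2 CPM in lean and 58.7, 59.9 and 58.6 CPM in obese secretome. The obese libraries lay below both other groups, which overlapped each other. Lean over obese passed the test (log2 fold change 0.14, SE 0.0497, adjusted p = 0.0169), but not without each of lean replicate 2 (adjusted p = 0.0597), obese replicate 1 (adjusted p = 0.0548) and obese replicate 3 (adjusted p = 0.0575) in turn. Obese against control also passed (log2 fold change -0.18, SE 0.05, adjusted p = 0.046), but not without each of control replicate 1 (adjusted p = 0.274), control replicate 2 (adjusted p = 0.0924), control replicate 3 (adjusted p = 0.0843), obese replicate 1 (adjusted p = 0.139), obese replicate 2 (adjusted p = 0.0981) and obese replicate 3 (adjusted p = 0.194) in turn, and not with DESeq2 size factors in edgeR (adjusted p = 0.0537) and all 18 mouse libraries in 1 fit (adjusted p = 0.0523). Bid, the member that caspase-8 cleaves to link death receptors to mitochondria, measured 17.7, 16.6 and 19.6 CPM in control, 20.1, 20.4 and 21.6 CPM in lean and 20.3, 18.9 and 20.8 CPM in obese secretome. Its lean libraries all exceeded control (log2 fold change 0.21, SE 0.076, adjusted p = 0.0218), a call lost without each of control replicate 1 (adjusted p = 0.0623), control replicate 2 (adjusted p = 0.139) and lean replicate 3 (adjusted p = 0.065) in turn. Bid shares 628 bases, 17.69% of its exons, with Bcl2l13 on the opposite strand.

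**Figure D2:**
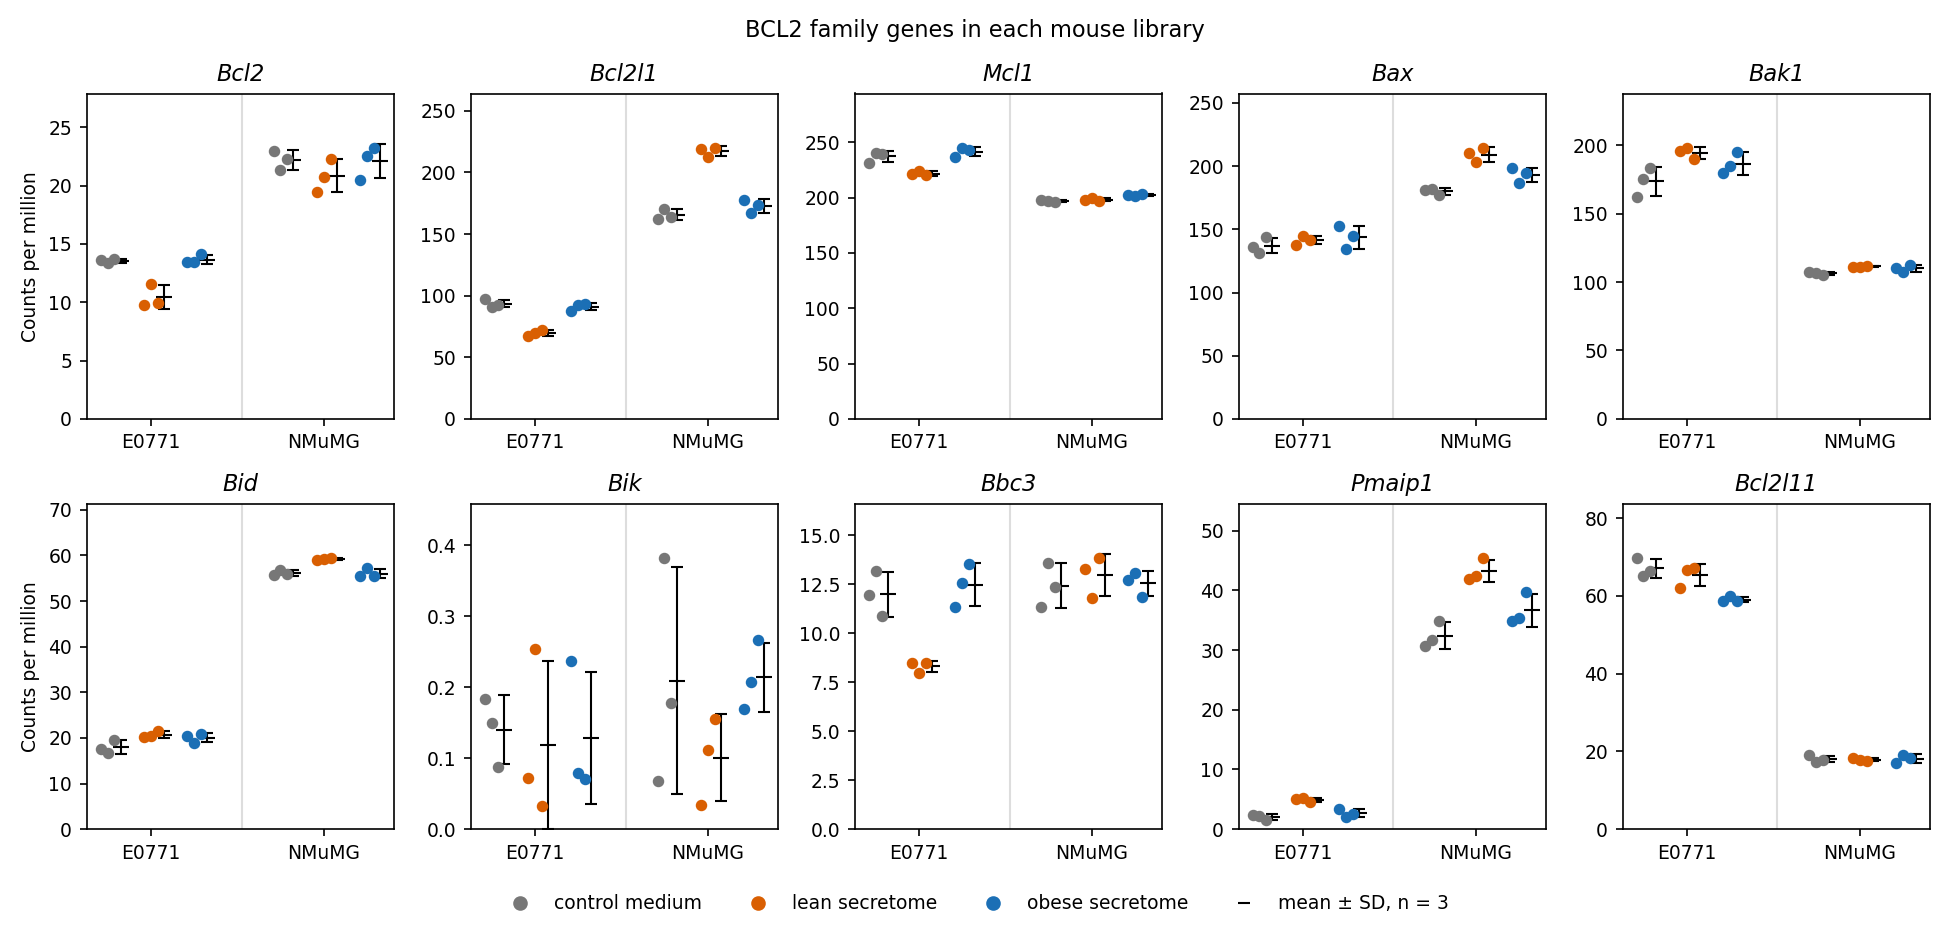
CPM of the 10 members in each library of E0771 and NMuMG (points), with mean ± SD of 3 libraries beside them, by medium; each panel has its own axis from 0. In E0771 the lean libraries of Bcl2, Bcl2l1, Mcl1 and Bbc3 lie below, and those of Pmaip1 above, all other libraries. In NMuMG the lean libraries of Bcl2l1, Bax, Pmaip1 and Bid lie above all others, and Bid was not called.

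In NMuMG, Bcl2l1, Pmaip1 and Bax rose under lean secretome, and no tested member was called lower. Against obese secretome 3 of 9 tested members were called, beside 35.0% of all genes tested, and 5 of 9 did not overlap, beside 45.2% of all genes. Against control 3 of 9 were called, beside 38.2% of all genes. The members' median lean-over-obese log2 fold change was 0.05 over 9 genes, and it was -0.0023 over all genes. The shares called lie near the background.

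Bcl2l1 measured 163, 171 and 164 CPM in the NMuMG control libraries, 219, 213 and 220.0 CPM in lean and 178, 167 and 174 CPM in obese secretome. The lean libraries lay well above the other 6, the reverse of their place in E0771. The increase was 25.7% over obese (log2 fold change 0.33, SE 0.0349, adjusted p = 2.48e-09) and 31% over control (log2 fold change 0.39, SE 0.0348, adjusted p = 3.26e-11). Pmaip1 measured 30.7, 31.7 and 34.9 CPM in control, 41.9, 42.5 and 45.4 CPM in lean and 34.8, 35.3 and 39.8 CPM in obese secretome. Each lean library exceeded each of the others (over obese, log2 fold change 0.24, SE 0.0588, adjusted p = 0.00159; over control, log2 fold change 0.42, SE 0.0588, adjusted p = 5.21e-07). Bax measured 181, 182 and 177 CPM in control, 210.0, 203 and 215 CPM in lean and 198, 187 and 194 CPM in obese secretome. The 3 media did not overlap and followed the order control, obese, lean (lean over obese, log2 fold change 0.11, SE 0.0347, adjusted p = 0.00914; lean over control, log2 fold change 0.22, SE 0.0346, adjusted p = 4.8e-06). The call of Bax against obese was lost without obese replicate 2 (adjusted p = 0.0658).

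The other 6 tested members did not pass the test in NMuMG under lean secretome. The 95% interval of the lean-over-obese log2 fold change was -0.10 to 0.036 for Mcl1, -0.23 to 0.053 for Bcl2, -0.059 to 0.091 for Bak1 and -0.0085 to 0.17 for Bid. The lean libraries of Bid, at 58.99 to 59.44 CPM, lay above control, at 55.64 to 56.81, and obese, at 55.38 to 57.15. Those of Mcl1 lay below obese and overlapped control. For Bbc3, which fell in E0771, the NMuMG libraries overlapped at 11.3 to 13.6 CPM in control, 11.8 to 13.8 CPM in lean and 11.8 to 13.1 CPM in obese secretome, with an interval of -0.13 to 0.23. Bcl2l11 ranged from 17.4 to 19.0 CPM in control, 17.5 to 18.4 CPM in lean and 16.9 to 19.2 CPM in obese secretome, with an interval of -0.16 to 0.13.

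The difference between the mouse lines in their response was tested directly, as an interaction in 1 fit of the 18 libraries. For lean over obese 4 of 9 members differed, beside 34.2% of all genes, and for lean over control 3 of 9 differed, beside 34.5%. Bcl2l1 fell in E0771 and rose in NMuMG, with a difference in log2 fold change, E0771 minus NMuMG, of -0.70 against obese (SE 0.0569, adjusted p = 1.06e-12) and -0.79 against control (SE 0.0568, adjusted p = 3.67e-14). Bbc3, lower in E0771 alone by the separate tests, differed by -0.62 (SE 0.133, adjusted p = 0.000246) and -0.57 (SE 0.133, adjusted p = 0.000662). Pmaip1 rose in both lines, by more on the log2 scale in E0771, with differences of 0.67 (SE 0.159, adjusted p = 0.000851) and 0.86 (SE 0.168, adjusted p = 7.19e-05). Its level in E0771 under lean secretome, 4.96 ± 0.333 CPM (SD, n = 3), was still below that of NMuMG in control, 32.4 ± 2.23 CPM. These 3 differences were called under every alternative run.

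Bcl2 differed between the lines for lean over obese by -0.29 (SE 0.111, adjusted p = 0.0388), but the call was lost with no filter on low counts (adjusted p = 0.0531) and without each of E0771 lean replicate 1 (adjusted p = 0.117), E0771 lean replicate 3 (adjusted p = 0.0975), E0771 obese replicate 1 (adjusted p = 0.0507), E0771 obese replicate 2 (adjusted p = 0.0516), E0771 obese replicate 3 (adjusted p = 0.1), NMuMG lean replicate 2 (adjusted p = 0.0594), NMuMG lean replicate 3 (adjusted p = 0.0847) and NMuMG obese replicate 1 (adjusted p = 0.118) in turn. For lean over control its difference of -0.26 was not called (adjusted p = 0.0637), and was called without each of E0771 lean replicate 2 (adjusted p = 0.0193) and NMuMG lean replicate 1 (adjusted p = 0.0398) in turn. Bax, which rose in NMuMG and was not called in E0771, was not shown to differ between the lines (-0.12 for lean over obese, adjusted p = 0.109, and -0.14 for lean over control, adjusted p = 0.0514). It was called for lean over control without each of E0771 control replicate 2 (adjusted p = 0.0337), E0771 lean replicate 2 (adjusted p = 0.0494) and NMuMG lean replicate 2 (adjusted p = 0.0362) in turn and with DESeq2 size factors in edgeR (adjusted p = 0.0336), no filter on low counts (adjusted p = 0.0448) and DESeq2 (adjusted p = 0.0373), and for lean over obese without E0771 obese replicate 2 (adjusted p = 0.0255). For lean over control the difference was not called for Bak1 (0.12, adjusted p = 0.107) or Bid (0.16, adjusted p = 0.137). Leaving out E0771 control replicate 3 gave a call for each (adjusted p = 0.0266 for Bak1 and 0.0374 for Bid). The interaction of Bcl2l11 for lean over obese was 0.18 (adjusted p = 0.0998; 0.0471 without NMuMG obese replicate 1). For Mcl1 it was -0.08 for lean over obese (adjusted p = 0.227) and -0.08 for lean over control (adjusted p = 0.209), and DESeq2 called both (adjusted p = 0.0388 and 0.0473).

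**Figure D3:**
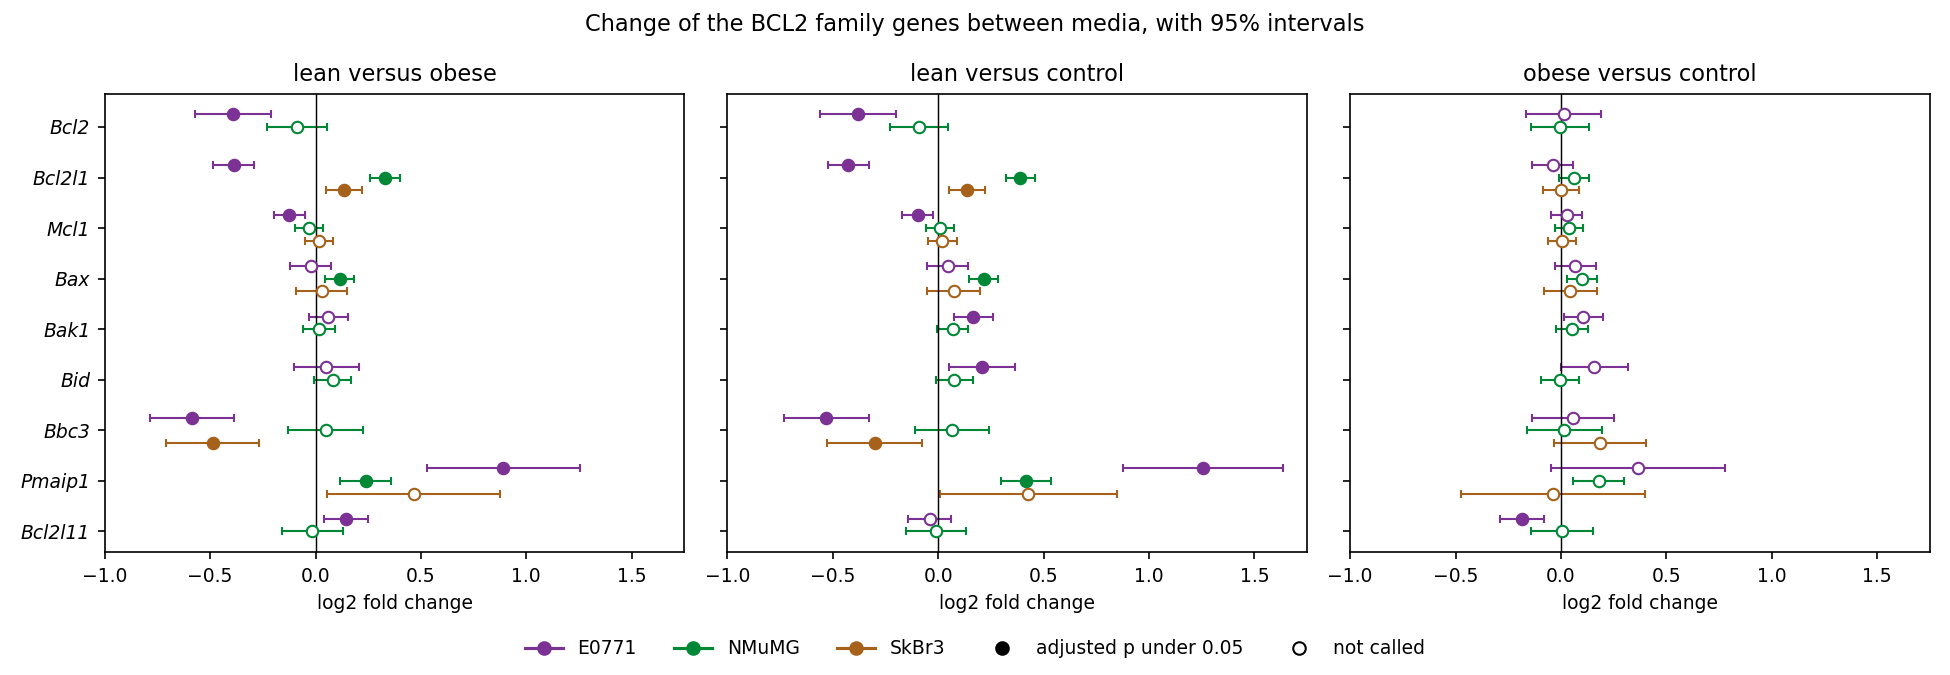
Log2 fold change of each tested member between media with 95% intervals, for E0771, NMuMG and SkBr3 (human counterparts on the row of the mouse gene); filled points passed an adjusted p under 0.05. Bcl2l1 lies on opposite sides of 0 in E0771 and NMuMG for lean secretome, and nearly all points for obese over control are open.

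Few members were called between obese secretome and control. In E0771, 1 of 9 tested members was called, the Bcl2l11 decrease described above, beside 2.61% of all genes tested, and 3 members, Bcl2l11, Bak1 and Bid, had an unadjusted p under 0.05. In NMuMG 0 of 9 were called by edgeR, beside 5.01% of all genes, and 2 members, Bax and Pmaip1, had an unadjusted p under 0.05. Bax stood 7.28% above control with no overlap (log2 fold change 0.10, SE 0.0348, adjusted p = 0.0896), and was called without obese replicate 2 (adjusted p = 0.0436). Pmaip1 stood 13.2% above control with overlap (log2 fold change 0.18, SE 0.0602, adjusted p = 0.0819), and was called without control replicate 3 (adjusted p = 0.0374), and with no filter on low counts (adjusted p = 0.0441). DESeq2 called 0 of 9 here as well. For Bcl2l1 the 95% interval of obese over control was -0.14 to 0.057 in E0771 and -0.011 to 0.13 in NMuMG. No member's response to obese secretome was called as different between the lines by edgeR or DESeq2, beside 1.69% of all genes by edgeR, and 2 members, Bid and Bcl2l11, had an unadjusted p under 0.05 in edgeR's test.

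In SkBr3, 2 of the 5 human genes were called between lean and obese secretome, beside 44.1% of all genes tested, and 3 did not overlap, beside 34.7%. BCL2L1 measured 119.9, 126, 131 and 128 CPM in control, 138, 135, 131 and 149.7 CPM in lean and 129, 122, 126 and 127 CPM in obese secretome. Lean lay above obese in every library but overlapped control (over obese, log2 fold change 0.14, SE 0.0418, adjusted p = 0.0113; over control, log2 fold change 0.14, SE 0.042, adjusted p = 0.0101). The call against obese was lost without lean replicate 4 (adjusted p = 0.0643), and that against control without each of control replicate 1 (adjusted p = 0.0613) and lean replicate 4 (adjusted p = 0.0582) in turn. BBC3 measured 8.78, 8.15, 9.32 and 9.30 CPM in control, 6.69, 7.11, 9.29 and 5.97 CPM in lean and 10.4, 10.2, 9.38 and 10.5 CPM in obese secretome. It fell by 28.7% against obese with no overlap (log2 fold change -0.49, SE 0.107, adjusted p = 0.00077), a call that held under every alternative run.

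Against control 2 of the 5 human genes were called, beside 48.8% of all genes. BBC3 fell by 18.9% against control, with overlap (log2 fold change -0.30, SE 0.11, adjusted p = 0.0262), a call lost without each of control replicate 3 (adjusted p = 0.0686), control replicate 4 (adjusted p = 0.0708), lean replicate 1 (adjusted p = 0.07), lean replicate 2 (adjusted p = 0.0581) and lean replicate 4 (adjusted p = 0.12) in turn. PMAIP1 measured 1.31, 1.13, 2.25 and 1.55 CPM in control, 2.12, 1.66, 2.22 and 2.24 CPM in lean and 1.36, 1.48, 1.61 and 1.48 CPM in obese secretome. Every lean library exceeded every obese one, but the test was not passed (log2 fold change 0.47, SE 0.198, adjusted p = 0.0597). It was passed without lean replicate 2 (adjusted p = 0.0396) and with only the 2 groups in the fit (adjusted p = 0.0445). For lean over control PMAIP1 was not called (adjusted p = 0.0857), except without control replicate 3 (adjusted p = 0.0133). MCL1 ranged from 365 to 384 CPM in control, 376 to 389 CPM in lean and 373 to 388 CPM in obese secretome, and the 95% interval of its lean-over-obese log2 fold change was -0.052 to 0.082. For BAX that interval was -0.094 to 0.15. Obese secretome against control gave 0 of 5 calls by edgeR, 0 at an unadjusted p under 0.05 and 0 by DESeq2, beside 1.16% of all genes. The human and mouse tables were fitted separately, and the difference between SkBr3 and the mouse lines was not tested.

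**Figure D4:**
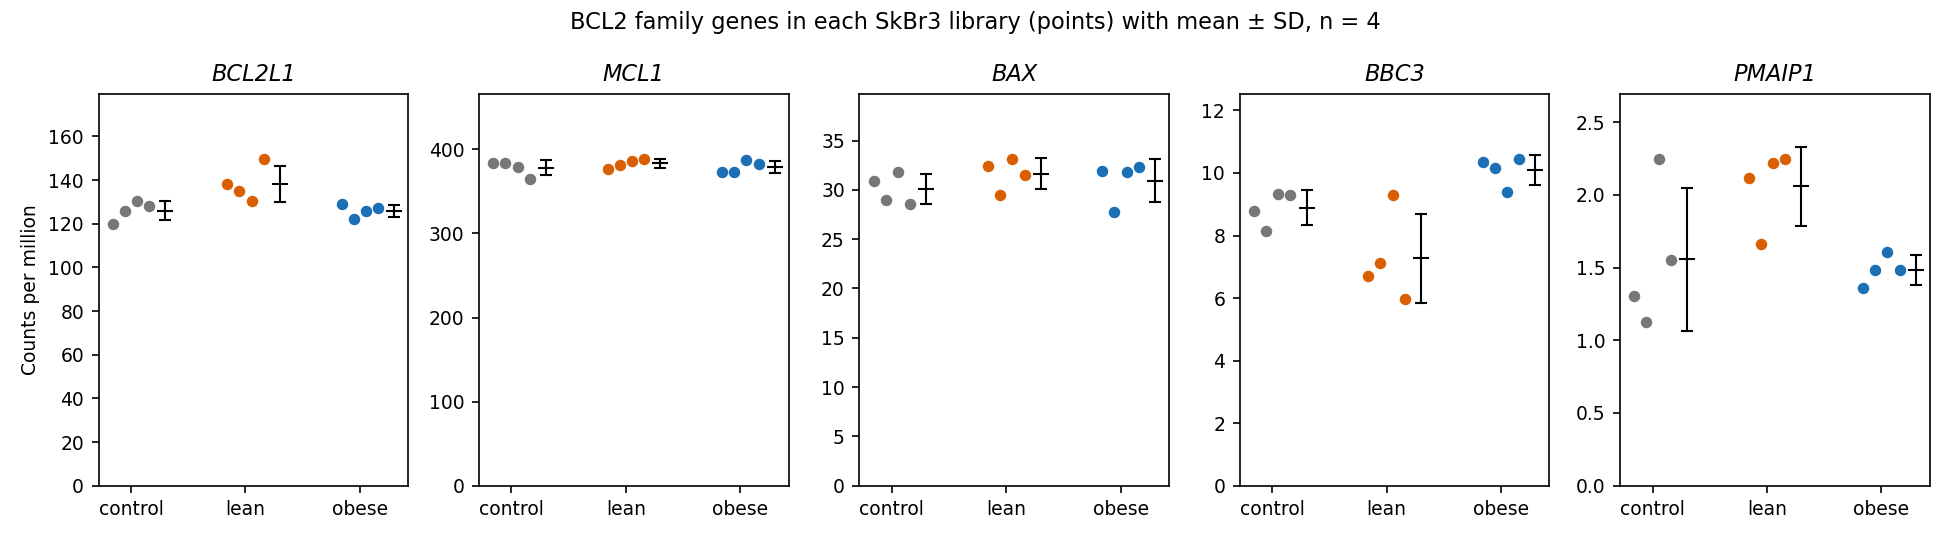
CPM of the 5 human genes in each SkBr3 library (points), with mean ± SD of 4 libraries beside them, by medium; each panel has its own axis from 0. BBC3 is lower and BCL2L1 higher in the 4 lean than in the 4 obese libraries, and 1 obese library is low for BAX.

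Promoter sequences are shown for 3 genes on which the results turn: Bcl2l1, opposite in the mouse lines, Bbc3, called lower in E0771 and not in NMuMG, and Bax, called higher in NMuMG. Each sequence is the 250 bases before an annotated transcript start, read 5′ to 3′ on the gene's strand, from RefSeq on GRCm38.p6. Capitals mark an E-box (CACGTG) or a copy of the p53 motif. RefSeq lists 3 starts each for Bcl2l1 and Bbc3. The Bcl2l1 stretch shown overlaps no GENCODE M21 exon of Bcl2l1 itself, and exons of other genes were not checked. The Bbc3 stretch shown is the one with an E-box.
Bcl2l1, chr2:152831729-152831978, minus strand: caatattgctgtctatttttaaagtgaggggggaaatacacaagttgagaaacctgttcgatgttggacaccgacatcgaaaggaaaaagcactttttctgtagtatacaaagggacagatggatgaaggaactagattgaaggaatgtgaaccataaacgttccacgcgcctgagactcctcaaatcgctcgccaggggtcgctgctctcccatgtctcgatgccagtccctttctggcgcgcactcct
Bbc3, chr7:16310181-16310430, plus strand: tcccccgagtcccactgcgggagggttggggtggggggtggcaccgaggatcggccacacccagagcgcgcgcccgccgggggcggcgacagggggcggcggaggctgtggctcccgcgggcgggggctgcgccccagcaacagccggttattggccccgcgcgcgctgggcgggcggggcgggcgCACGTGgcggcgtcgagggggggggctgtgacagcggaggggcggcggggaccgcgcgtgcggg
Bax, chr7:45466899-45467148, minus strand: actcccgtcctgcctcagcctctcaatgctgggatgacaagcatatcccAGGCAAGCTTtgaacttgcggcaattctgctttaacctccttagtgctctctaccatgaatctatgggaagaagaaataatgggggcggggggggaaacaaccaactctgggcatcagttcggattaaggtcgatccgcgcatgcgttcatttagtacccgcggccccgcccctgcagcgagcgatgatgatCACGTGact

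The promoter table held 13 entries for 8 of the 10 mouse members and 32851 entries in all, each from 250 bases before to 50 bases after a start. Each was searched on both strands. Entries can overlap, as 2 of those for Bbc3 do. The E-box was found in 2 of 13 member entries, Bbc3 at position -64 and Bax at -9 and 35 from the start, and in 7.15% of all entries. The p53 motif, in a single copy, was found in 1 of 13, Bax at -201, and in 8.36% of all. The antioxidant response element core (TGACNNNGC) was found in 1 of 13, a Bcl2l1 start other than the one shown, and in 12.4% of all. All 250 bases before that start lie in GENCODE M21 exons of Bcl2l1 itself. The C/EBP-ATF element (TTGCATCA) and the cAMP response element (TGACGTCA) were found in 0 of 13 entries, and in 0.895% and 1.79% of all. A match describes letters and not a bound site. The Bcl2l1 stretch shown, whose gene changed in both lines, held none of the 5 motifs.

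The genes whose pattern was most like that of Bcl2l1 over the 18 mouse libraries, each line centred on its own mean, were Sorbs3 (Pearson r = 0.974) and St3gal4 (r = 0.961), of 10447 genes compared. Both fell in E0771 and rose in NMuMG, with lean-over-obese log2 fold changes of -0.84 and 0.91 for Sorbs3 and -0.36 and 0.40 for St3gal4. For Pmaip1 the most alike were Spag9 (r = 0.953) and Pcgf3 (r = 0.949), and within NMuMG alone r was 0.764 for Spag9 and 0.919 for Pcgf3. The points share libraries and media, and these values are descriptions.

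Of 15 other BCL2 family genes, 8 were tested in E0771, where 1 was higher and 4 were lower under lean than obese secretome, and 9 in NMuMG, where 1 was lower. For these and the following lists the background is 52.7% of all genes called in E0771 and 35.0% in NMuMG for lean over obese. No test of the difference between the lines is given for the list genes. The median log2 fold change was -0.09 in E0771 and 0.02 in NMuMG, beside 0.0035 and -0.0023 over all genes. Bmf, a BH3-only gene, was lower in both lines, at 11.1 ± 0.438 CPM in lean against 23.3 ± 0.265 CPM (SD, n = 3) in obese in E0771 (log2 fold change -1.07, adjusted p = 4.19e-11). In NMuMG Bmf stood at 42.7 ± 3.26 against 53.4 ± 1.83 CPM (log2 fold change -0.32, adjusted p = 5.75e-06). Bnip3, a mitochondrial protein of mitophagy and hypoxia, rose in E0771 (log2 fold change 0.61, adjusted p = 0.00175), and Bcl2l12 fell (-0.28, adjusted p = 0.00696). Of 5 mitochondrial partners, the outer-membrane receptor Mtch2 was the 1 called in E0771 (-0.15, adjusted p = 0.00502) and the endoplasmic reticulum protein Bcap31 the 1 called in NMuMG (0.20, adjusted p = 2e-05).

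Downstream of the mitochondria, 4 of 12 tested apoptosome and caspase genes were higher and 3 lower under lean than obese secretome in E0771, with a median log2 fold change of 0.0030, beside 52.7% of all genes called and an all-gene median of 0.0035. In NMuMG 2 of 13 were higher and 1 lower, with a median of -0.02, beside 35.0% and -0.0023. Apaf1, the scaffold of the apoptosome, rose by 0.34 on the log2 scale in E0771 (adjusted p = 6.47e-06) and by 0.12 in NMuMG (adjusted p = 0.0488), while its partner Casp9 fell in E0771 (-0.36, adjusted p = 1.51e-05). Diablo, which blocks the caspase inhibitors, rose in E0771 (0.29) and the effector caspase Casp6 fell (-0.37). In NMuMG the initiator caspase Casp2 fell (-0.28, adjusted p = 8.66e-05). Of 6 caspase inhibitors, 0 were higher and 2 lower in E0771, Birc2 (-0.42, adjusted p = 4.73e-05) and Xiap (-0.21, adjusted p = 0.00878). In NMuMG 2 were higher, Birc3 (0.30) and the caspase-8 brake Cflar (0.29), and 1 was lower, Birc5 or survivin, from 112 ± 2.84 CPM in obese to 67.7 ± 7.71 CPM in lean secretome (-0.72, adjusted p = 8.34e-08). Birc5 is also a gene of dividing cells.

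Of the death receptor genes, 3 of 7 tested were higher and 4 lower in E0771 (median -0.30), and 4 of 7 were higher and 1 lower in NMuMG (median 0.18), beside 52.7% and 35.0% of all genes called and all-gene medians of 0.0035 and -0.0023. Tnfrsf10b, the receptor of the ligand TRAIL, rose in both lines, from 33.3 ± 2.78 CPM in obese to 57.8 ± 1.91 CPM in lean secretome in E0771 (0.80, adjusted p = 1.4e-10) and from 48.6 ± 2.88 to 67.2 ± 1.56 CPM in NMuMG (0.47, adjusted p = 1.2e-09). Its adaptor Fadd fell in both (-0.41 in E0771 and -0.29 in NMuMG). Casp8 rose in both (0.18 in E0771, adjusted p = 0.00972, and 0.30 in NMuMG, adjusted p = 3.32e-07), and Tradd fell in E0771 (-0.42). Fas rose in NMuMG (0.42, adjusted p = 0.00198) and fell in E0771 (-1.58, adjusted p = 0.00279), where it stood at 0.300 ± 0.0190 CPM in lean and 0.899 ± 0.477 CPM in obese secretome. Casp8 in NMuMG and Fas in E0771 lie outside the rule for named genes and were chosen after their values were seen.

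Of the regulators of these genes, 7 of 12 tested were higher and 3 lower in E0771 (median 0.17), and 5 of 13 were higher and 1 lower in NMuMG (median 0.06), again beside 52.7% and 35.0% of all genes and the same all-gene medians. Cdkn1a, a p53 target that arrests the cell cycle, rose in E0771 from 33.9 ± 4.05 to 68.9 ± 3.89 CPM (1.03, adjusted p = 2.17e-11) and also in NMuMG (0.32, adjusted p = 5.76e-09, named after its value was seen), and in E0771 the stress factor Atf3 rose from 4.06 ± 0.402 to 10.7 ± 0.814 CPM (1.40, adjusted p = 9.55e-10). Atf4, the transcription factor of the integrated stress response, fell in both lines (-0.70 in E0771, adjusted p = 4.63e-13; -0.27 in NMuMG, adjusted p = 1.44e-07). Its target Trib3 fell in E0771 (-0.62, adjusted p = 6.41e-10) and rose in NMuMG (0.56, adjusted p = 5.68e-05), where Ddit3, the CHOP factor, rose as well (0.45, adjusted p = 0.000447).

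Against control, lean secretome in E0771 gave 2 higher and 2 lower of 8 other BCL2 family genes, 1 higher of 5 mitochondrial partners, 4 higher and 3 lower of 12 apoptosome and caspase genes, 4 lower of 6 caspase inhibitors, 3 higher and 4 lower of 7 death receptor genes, and 5 higher and 4 lower of 12 regulators, beside 56.3% of all genes called. In NMuMG the same comparison gave 1 higher and 1 lower of 9 other BCL2 family genes, 2 higher of 5 partners, 2 higher and 2 lower of 13 apoptosome and caspase genes, 2 higher and 2 lower of 6 inhibitors, 3 higher and 1 lower of 7 death receptor genes, and 6 higher and 1 lower of 13 regulators, beside 38.2% of all genes. Obese secretome against control gave 1 higher regulator as the sole call of these lists in E0771, beside 2.61% of all genes. In NMuMG it gave 1 higher and 1 lower of the other BCL2 family genes, 1 higher apoptosome or caspase gene and 2 higher regulators, beside 5.01%.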

How the data were processed

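The members were set by name, with no threshold on a measured value, but they and the gene lists were chosen with earlier results of these data known. The authors deposited raw counts of reads per Ensembl gene ID, 1 human and 1 mouse table, with no normalization. The labels describe poly(A) RNA and a directional library kit, and the submitters' processing notes name cutadapt 1.16, STAR 2.7.9a, featureCounts 1.6.3 and GRCm39; the human build, the annotation release and the strand setting of counting are not given in the sources used here. Reads carry no molecular identifiers. Mouse symbols came from GENCODE M21 (GRCm38), used for names, exon lengths and exon overlaps, and matched 52073 of 56980 IDs.

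Each line was fitted with its 3 media in edgeR 4.0.16 under R 4.3.3 (filterByExpr, TMM factors 0.987 to 1.02, robust quasi-likelihood F test, Benjamini-Hochberg over all genes tested; call at adjusted p under 0.05). Interactions and the control comparison of the mouse lines used 1 fit of 18 libraries. The genes tested numbered 13813 in E0771, 15014 in NMuMG, 14874 in SkBr3 and 16529 in the joint fit. CPM used the TMM-scaled library totals of each line's own fit, so CPM ratios between lines differ from the fold changes of the joint fit. Replicates exceeded counting error in every group (lowest chi-square per degree of freedom 1.97), and the median SE of the lean-over-obese log2 fold change was 0.072 in E0771, 0.0708 in NMuMG and 0.0759 in SkBr3. The pipeline was tested on simulated data. Named beyond the members were the 2 largest rises and decreases of lean over obese per list and line among called genes whose mean log2 CPM was at least 0, and for each member called in both mouse lines the 2 genes of highest Pearson r. A gene that this rule names is not reported here. Alternatives were DESeq2 1.42.0 as tool or as source of size factors, no filter on low counts, a replicate block, other samples in the fit, unscaled CPM and leaving out each library.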

Additional observations from a re-analysis of the deposited data

Results flagged for a closer look

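In 7 tests the effect of lean secretome differed between E0771 and NMuMG, by edgeR's quasi-likelihood interaction test over all genes (E0771 minus NMuMG, log2). For lean over obese the differences were -0.70 for Bcl2l1 (adjusted p = 1.06e-12), -0.62 for Bbc3 (adjusted p = 0.000246), 0.67 for Pmaip1 (adjusted p = 0.000851) and -0.29 for Bcl2 (adjusted p = 0.0388). For lean over control they were -0.79 for Bcl2l1 (adjusted p = 3.67e-14), -0.57 for Bbc3 (adjusted p = 0.000662) and 0.86 for Pmaip1 (adjusted p = 7.19e-05). Bcl2l1 was the member with opposite signs called in the 2 lines. The line and its growth medium cannot be told apart.

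BAX in SkBr3 under obese secretome had 1 library far from the others, at 27.8 CPM against 31.8 to 32.3 CPM. Its gap was 0.884 of the group's range. Of 15 groups of 4 libraries tested, this was the 1 found, and chance gives about 1 in 20.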

How the results depend on the processing

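The 105 log2 values of tested members had 1356 alternatives: 1293 kept their call, 39 were no longer called, 24 were newly called and 0 called values changed sign, while 53 values called in neither fit did. The number of members called moved, and the cause was not tested. Over all alternatives, the 6 calls for lean over obese in E0771 ranged from 5 to 6, and the 7 for lean over control from 5 to 7. In NMuMG the 3 calls for lean over obese ranged from 2 to 3. The 4 interactions for lean over obese ranged from 3 to 5, and the 8 calls between the lines in control from 8 to 9. Larger moves, relative to the count, were as follows. For obese over control in E0771 the 1 call became 0 with DESeq2 size factors, with the replicate block, with all 18 mouse libraries in 1 fit and without each replicate (range 0 to 0). For obese over control in NMuMG 0 became 1 with no filter on low counts and with the replicate block, and ranged from 0 to 1 without each replicate. In SkBr3 the 2 calls ranged from 1 to 3 for lean over obese and from 0 to 2 for lean over control without each replicate, with the lowest value in both cases without lean replicate 4. The 3 interactions for lean over control became 5 with DESeq2 and ranged from 3 to 5 without each replicate. Over all genes, obese over control moved most. In E0771 360 genes were called, from 79 without control replicate 1 to 626 with no filter. In NMuMG 752 were called, from 384 to 893 without each replicate and 484 in the joint fit. In SkBr3 172 were called, from 20 without obese replicate 4 to 849 with only the 2 groups in the fit, 539 with no filter and 387 with DESeq2. The interaction for obese over control called 279, from 149 without E0771 obese replicate 3 to 428 with no filter. Residual correlations of same-numbered libraries were -0.217 to 0.164 in E0771, -0.0827 to 0.0364 in NMuMG and -0.139 to 0.183 in SkBr3. They exceeded 0.1 in 1 of 9, 0 of 9 and 3 of 12 pairs in turn. Libraries of different numbers were not compared, so these values cannot show whether replicate numbers pair the samples. With the replicate block Bcl2l11 for obese over control in E0771 was not called (adjusted p = 0.068), and Pmaip1 for obese over control in NMuMG (adjusted p = 0.0499) and PMAIP1 for lean over obese in SkBr3 (adjusted p = 0.0473) were newly called; no other member call changed. The replicate block could not be run for the control comparison of the lines, whose numbers are nested in line. CPM without TMM scaling changed by at most 0.708% in E0771, 1.39% in NMuMG and 1.98% in SkBr3. Bik was tested only with DESeq2 or with no filter, and was not called. Precision was lowest for the tested members with the fewest counts, Pmaip1 in E0771 (SE 0.176 for lean over obese) and PMAIP1 in SkBr3 (SE 0.198).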
